A study of Mus musculus with 136 samples.

Results

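The genes examined were 6 forkhead transcription factor genes that lie in 2 paralogous clusters of the mouse genome, out of the 21887 protein-coding genes in the reference annotation. Foxf1, Foxc2 and Foxl1 sit together on chromosome 8, and Foxq1, Foxf2 and Foxc1 on chromosome 13. Each gene's window was its body plus 2500 bp on both sides (mm10), and the intervals between neighbouring windows were kept as well, so that the chromosome 8 cluster spanned 51.3 kb and the chromosome 13 cluster 257 kb. Chromatin immunoprecipitation followed by sequencing (ChIP-seq) had been carried out in untreated mouse embryonic stem cells (ESCs) of the E14JU line (129/Ola), kept in serum with LIF, the cytokine that holds ESCs undifferentiated. MCM2-2A clones 439 and 442 carry MCM2 mutated in its histone-binding domain. MCM2 is a replicative helicase subunit that recycles parental histones to the lagging DNA strand, and the mutation shifts them to the leading strand. Clone 410 is wild type (WT), so that WT is a single clone. SUZ12, which belongs to the core of Polycomb repressive complex 2 (PRC2), was mapped in crosslinked chromatin of all 3 clones, with 3 replicates combined in each list. Lists of H3K27me3, H3K4me3, H3K27ac and H3K9me3 came from MNase-digested native chromatin of WT clone 410, from an original experiment (2 replicates each) and, except for H3K27ac, from a later rescue experiment (3 replicates each).

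Forkhead factors bind DNA through a winged-helix domain, and many of them act in embryos and differentiating tissues. In ESCs many such developmental genes are held silent by PRC2, which deposits H3K27me3, while their CpG-rich promoters also carry H3K4me3, a state called bivalent. H3K27ac marks active promoters and enhancers, and H3K9me3 marks heterochromatin. Foxf1 and Foxf2 act in the mesenchyme of the gut and lung, Foxc1 and Foxc2 in mesoderm, the eye and blood and lymph vessels, Foxl1 in the mesenchyme under the gut epithelium, and Foxq1 in hair and stomach.

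Each list gave 1 value per clone or mark, with no value per replicate and no read depth, so the spread between replicates is unknown. An exact permutation test of 2 mutant lists against 1 WT list cannot give p below 0.33, and all comparisons of genotypes are descriptions. Absence from a list does not show absence of binding. The lists held 7571 SUZ12 peaks in clone 439, 7840 in clone 442 and 6298 in WT. Of the listed embryonic stem cell markers 10 of 10 had H3K27ac in WT, as did 1 of 8 fibroblast markers (Thy1) and 3 of 6 endoderm markers. The share over all protein-coding genes was 66.1%. The strongest H3K27ac peak was 19.7-fold to 40.8-fold at the stem cell markers. It was at most 5.68-fold at the fibroblast markers and at most 3.82-fold at the endoderm markers.

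SUZ12 was found at all 6 genes in both MCM2-2A clones and at 5 of 6 in WT, Foxl1 being the gene without a WT peak. Of all protein-coding genes, 26.2% had a peak in clone 439, 27.7% in clone 442 and 22.5% in WT. The same 5 genes (Foxf1, Foxc2, Foxq1, Foxf2 and Foxc1) had SUZ12 in all 3 lists, as did 21.3% of genes. Foxl1 was the 1 gene of the 6 with SUZ12 in both mutant clones and not in WT, a pattern seen at 3.08% of genes. The reverse, SUZ12 in WT and in neither mutant clone, was found at 0 of the 6 genes and at 0.256% of all genes.

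On chromosome 8, Foxf1 (121084386-121088154) had a strongest SUZ12 peak of 85.1-fold enrichment over local background in clone 439 and 54.0-fold in clone 442, against 108.7-fold in WT. The peak was 13.8 kb wide in clone 439, 13.1 kb in clone 442 and 13.1 kb in WT, and covered the whole window in each. Foxc2 (121116171-121118895) had the strongest peak of the 6 genes in clone 439, 121-fold (rank 7 of 7571), with 62.7-fold in clone 442 and 122-fold in WT (rank 18 of 6298). The Foxc2 values of clone 439 and WT thus lay next to each other, and that of clone 442 lay far below both. Foxl1 (121127685-121130644) had a peak of 92.5-fold in clone 439 and shared the 62.7-fold peak of Foxc2 in clone 442.

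On chromosome 13, Foxq1 (31558170-31560976) had the lowest fold enrichment of the 5 genes with WT SUZ12, 66.3-fold in clone 439 and 50.4-fold in clone 442 against 94.8-fold in WT. Its peak was also the narrowest of those 5, at 6.34 kb in clone 439, 5.53 kb in clone 442 and 6.90 kb in WT. Foxf2 (31625816-31631406) had 99.8-fold in clone 439 and 83.0-fold in clone 442, against 114.5-fold in WT. Foxc1 (31806646-31810635) had 92.2-fold in clone 439 and 92.1-fold in clone 442, against 118.6-fold in WT. Both Foxf2 and Foxc1 lay under wide peaks, of 14.8 kb in clone 439, 18.6 kb in clone 442 and 17.8 kb in WT at Foxf2, and of 13.8 kb in clone 439, 14.5 kb in clone 442 and 13.9 kb in WT at Foxc1. Clone 439 also had a weak separate peak of 5.12-fold (chr13:31797427-31799869) beside that of Foxc1.

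**Figure D1:**
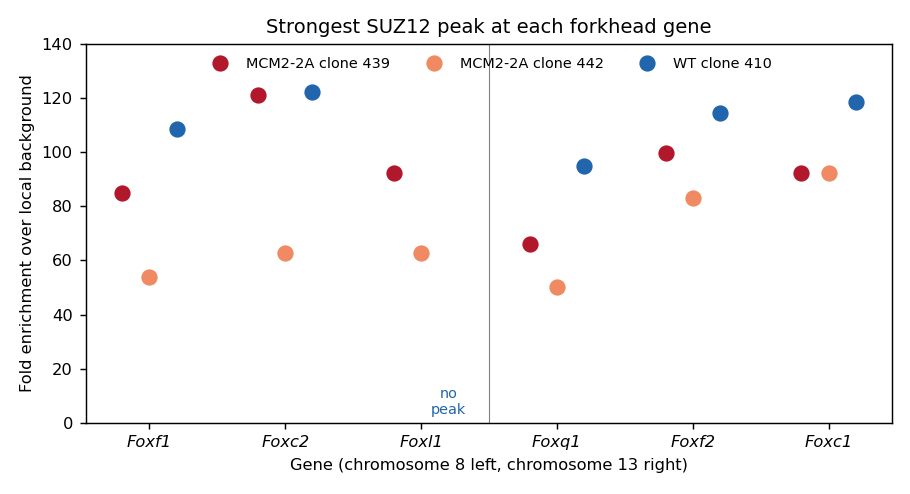
Strongest SUZ12 peak in the window of each gene (fold enrichment over local background, vertical axis) in MCM2-2A clones 439 and 442 and WT clone 410, 1 point per list. The WT point was the highest at each of the 5 genes with a WT peak, nearly level with clone 439 at Foxc2 (121 in clone 439, 122 in WT), and Foxl1 had no WT peak and, in clone 442, the peak joined with Foxc2.

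All 5 shared genes had a lower fold enrichment in both mutant clones than in WT, though at Foxc2 clone 439 and WT were nearly equal. The ratio of clone 439 to WT was 0.783 at Foxf1, 0.989 at Foxc2, 0.699 at Foxq1, 0.871 at Foxf2 and 0.777 at Foxc1. That of clone 442 to WT was 0.496 at Foxf1, 0.512 at Foxc2, 0.531 at Foxq1, 0.725 at Foxf2 and 0.777 at Foxc1. The 119 WT peaks at least as strong as that of Foxq1 had a median ratio of 0.862 in clone 439 and 0.656 in clone 442, and 86.6% and 99.2% of them lay below 1, so the direction at the 5 genes was that of strong peaks in general. Over all matched WT peaks the median ratio was 1.13 in clone 439 and 1.04 in clone 442. The set of 119 was chosen on its WT value, and the part of that choice in the ratios was not tested. Fold enrichment is relative to each library's own background and was not scaled between clones.

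Ranked within its own list, the strongest peak of the 6 genes lay at a median of 1.18% from the top in clone 439 and 2.47% in clone 442, against 0.460% for the 5 genes in WT. By -log10 q in place of fold enrichment the median became 1.27% in clone 439, 0.580% in clone 442 and 0.794% in WT. By these medians clone 442 lay below WT by 1 measure and above it by the other, and clone 439 below WT by both. However, the mutant medians include Foxl1, in clone 442 through the peak joined with Foxc2, and the WT median does not. Over the 5 shared genes the middle rank by -log10 q was that of Foxf2 in each list. It was 0.660% in clone 439 and 0.804% in clone 442, against 0.794% in WT, so both orders by -log10 q were reversed. By peak width clone 439 (1.51%) lay above WT (1.78%), and no order of ranks between the clones could be drawn.

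The summits stayed near their WT positions at Foxf1, Foxc2 and Foxq1, with shifts of 47, 8 and 6 bp in clone 439 and 19, 42 and 74 bp in clone 442. At Foxf2 the summit lay 26 bp from that of WT in clone 439 and 817 bp in clone 442. At Foxc1 it lay 486 bp away in clone 439 and 506 bp in clone 442. Among the 119 strong peaks 78.2% had a shift of at most 100 bp in clone 439 and 77.3% in clone 442, so Foxc1 in both clones and Foxf2 in clone 442 were outside the range of most.

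SUZ12 covered more of the chromosome 8 cluster in the mutant clones, 55.2% (28.3 kb) in clone 439 and 51.5% (26.4 kb) in clone 442 against 38.4% (19.7 kb) in WT. The chromosome 13 cluster did not show this, with 14.1% (36.2 kb) in clone 439 and 14.4% (37.1 kb) in clone 442 against 14.5% (37.3 kb) in WT. Genome-wide the covered share was 0.791% in clone 439, 0.832% in clone 442 and 0.673% in WT. Of the 28.4 kb covered in any clone on chromosome 8, 69.4% was covered in all 3, 23.4% (6.62 kb) in both mutants but not WT, and 0 bp in WT alone. Of the 41.5 kb on chromosome 13, 77.2% was covered in all 3, 0.018 kb in both mutants but not WT, and 4.22 kb in clone 442 and WT but not clone 439.

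**Figure D2:**
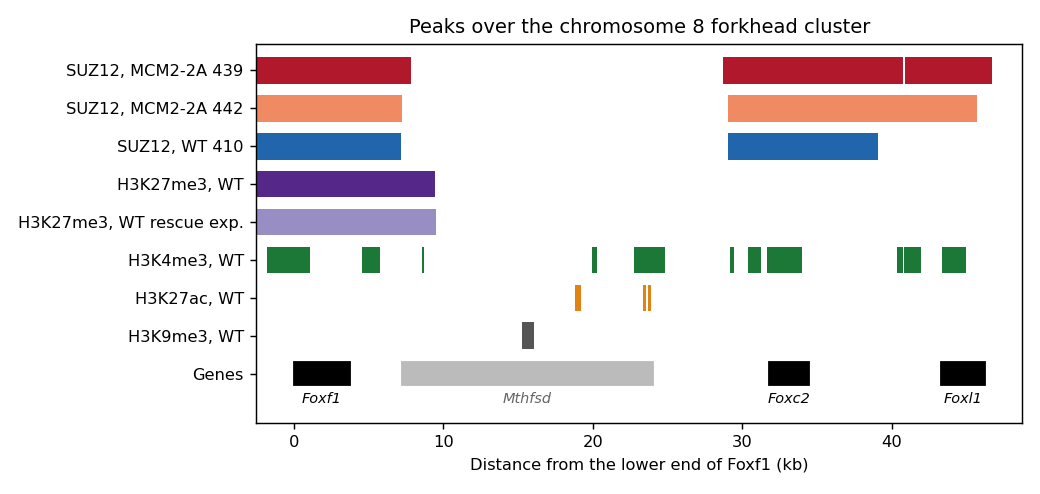
Peaks over the chromosome 8 cluster, by distance from the lower end of Foxf1 (kb, horizontal axis), with 1 row per list (SUZ12 in MCM2-2A clones 439 and 442 and in WT, then WT histone marks) and genes at the bottom, bars being cut at the ends of the cluster. SUZ12 at Foxf1 and Foxc2 was in all 3 clones, its stretch over Foxl1 in both mutant clones alone, and H3K27me3 ended past Foxf1.

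Most of the added coverage on chromosome 8 lay in the Foxl1 window, 5.86 kb in clone 439 and 4.91 kb in clone 442, against 0 kb in WT. The interval between Foxc2 and Foxl1 added 1.73 kb in clone 439 and 1.74 kb in clone 442, and that between Foxf1 and Foxc2 added 1.0 kb in clone 439 and 0.061 kb in clone 442. In clone 439 a Foxc2 peak (chr8:121113118-121125172) was followed after 83 bp by a separate Foxl1 peak (chr8:121125256-121131119, 5.86 kb wide). In clone 442 a single peak of 16.7 kb (chr8:121113429-121130090) ran from Foxc2 into Foxl1. In WT the Foxc2 peak (chr8:121113428-121123447) ended 1738 bp before the Foxl1 window and 4.24 kb before the gene itself. The lower ends of the Foxc2 peak in clone 442 and in WT differed by 1 bp, so that the 2 lists parted at the Foxl1 side. The 3.79 kb interval between the windows of Foxc2 and Foxl1 was covered to 99.7% in clone 439 and 100% in clone 442, against 54.2% in WT.

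The Foxl1 peak of clone 439 ranked 87 in its list. Of the 87 peaks at least as strong, 2 (2.30%) had no overlapping WT peak, the Foxl1 peak itself being 1 of them. The share over all 7571 peaks of that clone was 24.4%. Foxl1 was singled out for lacking a WT peak, and its peak was separate by 83 bp alone, so these shares do not measure how rare it is. Of the 194 peaks of clone 442 at least as strong as its joined peak, 0 had no WT peak. In clone 442 the peak over Foxl1 overlapped the WT peak of Foxc2, and its fold enrichment is that of the joined peak, not of Foxl1 alone. With 5000 bp on both sides of each gene the WT peak of Foxc2 reached Foxl1, and all 6 genes then had WT SUZ12. The strongest WT H3K4me3 peak of Foxl1 (47.2-fold, chr8:121125242-121126334) began 1.80 kb past the end of WT SUZ12. SUZ12 of clone 442 ran over all of this H3K4me3 peak. In clone 439 the start of the H3K4me3 peak fell in the 83 bp between the 2 SUZ12 peaks, and the Foxl1 SUZ12 peak covered the rest of it.

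**Figure D3:**
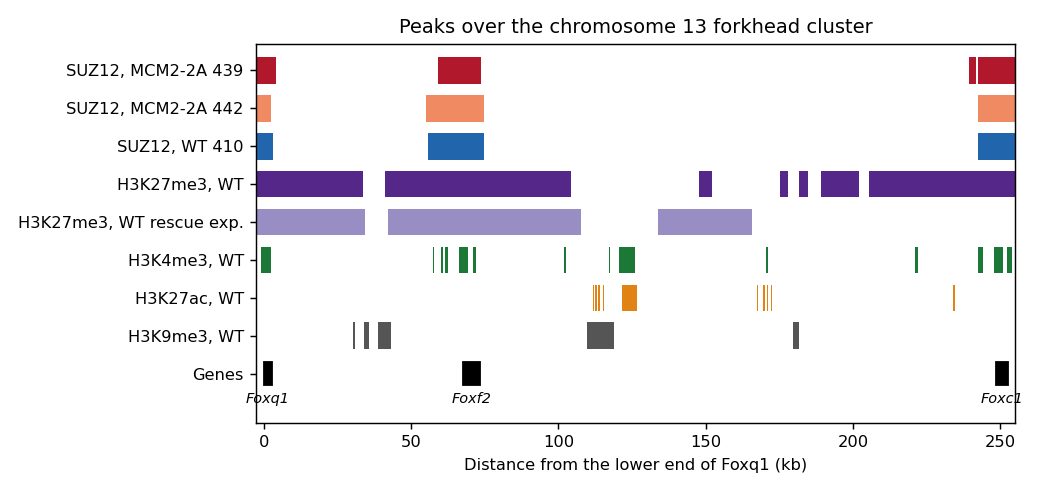
Peaks over the chromosome 13 cluster, by distance from the lower end of Foxq1 (kb, horizontal axis), with rows as SUZ12 in MCM2-2A clones 439 and 442 and in WT, then WT histone marks, genes at the bottom and bars cut at the ends of the cluster. SUZ12 was limited to stretches around the 3 genes in all 3 clones, H3K27me3 was far wider, and H3K27ac lay between Foxf2 and Foxc1.

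H3K4me3 was found at all 6 genes in both WT experiments, against 78.1% of genes in the original and 79.4% in the rescue experiment. The strongest H3K4me3 peak was 38.8-fold at Foxf1, 31.4-fold at Foxc2, 47.2-fold at Foxl1, 66.7-fold at Foxq1, 43.0-fold at Foxf2 and 41.9-fold at Foxc1 in the original list. In the rescue list the values were 40.7-fold at Foxf1, 55.0-fold at Foxc2, 57.8-fold at Foxl1, 52.4-fold at Foxq1, 39.3-fold at Foxf2 and 46.7-fold at Foxc1. The order of the genes changed between the experiments, with Foxq1 highest in the original list and Foxl1 in the rescue list. At Foxl1 alone this strongest peak lay in the flank and did not overlap the gene body in either list. The peak over the Foxl1 body had 16.2-fold in the original and 21.6-fold in the rescue list, below the values of the other genes. These strongest peaks lay 11% to 22.0% from the top of the original list. All H3K4me3 peaks of a window together covered between 33.6% and 54.9% of it.

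H3K27ac was found at 0 of the 6 genes, against 66.1% of all genes and 25 of the 38 other forkhead genes. Of the 8 other forkhead genes whose WT SUZ12 peak was at least as strong as that of Foxq1, 7 also had no H3K27ac, the exception being the endoderm regulator Foxa2. The nearest H3K27ac peak lay 5368 bp from the window of Foxc2, 11527 bp from Foxc1, 12581 bp from Foxf1, 16882 bp from Foxl1, 36045 bp from Foxf2 and 77989 bp from Foxq1. H3K9me3 was likewise at 0 of 6 genes in the original list (33.8% of genes). In the rescue list it was at 1, Foxc2 (58.7% of genes), as a region of 111 bp that covered 1.44% of the window. The shares of all genes come from windows of any length, whereas those of the 6 genes were 7.73 to 10.6 kb. Lengths were not matched, so the low counts do not by themselves show depletion.

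H3K27me3 was found at 4 of the 6 genes in the original list (Foxf1, Foxq1, Foxf2 and Foxc1), against 40.1% of genes, and at 3 in the rescue list (Foxf1, Foxq1 and Foxf2), against 59% of genes. The regions were wide and among the strongest of the original list, spanning 47.6 kb at Foxf1 (rank 137 of 41869), 58.2 kb at Foxq1 (rank 98), 63.3 kb at Foxf2 (rank 133) and 64.2 kb at Foxc1 (rank 52). Each covered its gene's window completely. In the rescue list the regions spanned 56.4 kb at Foxf1, 90.8 kb at Foxq1 and 65.5 kb at Foxf2. H3K4me3 overlapped H3K27me3 within the window at the same 4 genes in the original experiment (26.8% of genes) and the same 3 in the rescue experiment (40.9% of genes).

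Foxc2 had one of the strongest SUZ12 peaks in WT and lay in no H3K27me3 region of either experiment, a pair of calls shared with 1.13% of genes. The nearest H3K27me3 region ended 19831 bp away on the Foxf1 side. Foxc1 lay in the region of rank 52 in the original list (chr13:31763480-31827650) and in none of the rescue list, where the nearest region was 30335 bp from its window. Of the 119 WT SUZ12 peaks at least as strong as that of Foxq1, 49.6% overlapped H3K27me3 in the original list and 76.5% in the rescue list, against 59.8% and 78.5% of all WT peaks. Peaks in neither list, as at Foxc2, made up 14.3% of the 119 and 11.2% of all WT peaks. Peaks in the original list alone, as at Foxc1, made up 9.24% of the 119 and 10.3% of all WT peaks. Foxl1, without SUZ12 in WT, had H3K27me3 in neither list.

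**Figure D4:**
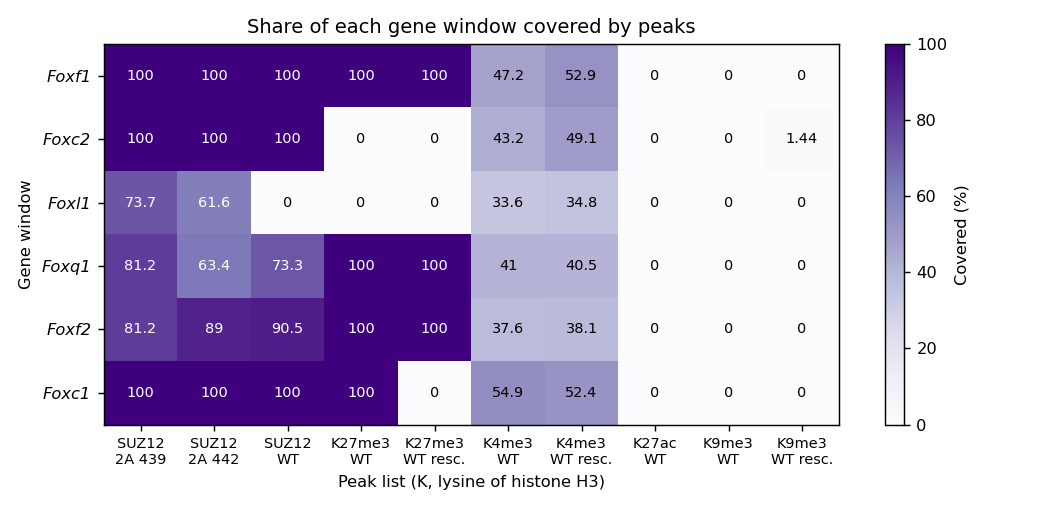
Percent of each gene window (rows) covered by the peaks of each list (columns), SUZ12 in MCM2-2A (2A) clones 439 and 442 left of WT, followed by the WT marks of the original and rescue (resc.) experiments. Foxc2 was covered to 100% by SUZ12 in all 3 clones and to 0% by H3K27me3, and no window held H3K27ac.

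Promoter sequences are given to set the base composition of SUZ12-covered promoters beside that of a promoter without SUZ12. RefSeq promoters (GRCm38.p6) were matched for 2 of the 6 genes, Foxf2 and Foxc1. Another 2 promoters of the chromosome 8 cluster are set beside them, chosen after their values were seen. They are Fendrr, a long noncoding RNA next to Foxf1 known from lateral mesoderm, and Mthfsd, a gene between Foxf1 and Foxc2. The 250 bases upstream of each start are written 5′ to 3′ on the gene's strand, with CpG dinucleotides in capitals.
Foxf2 (chr13:31625566-31625815, plus strand): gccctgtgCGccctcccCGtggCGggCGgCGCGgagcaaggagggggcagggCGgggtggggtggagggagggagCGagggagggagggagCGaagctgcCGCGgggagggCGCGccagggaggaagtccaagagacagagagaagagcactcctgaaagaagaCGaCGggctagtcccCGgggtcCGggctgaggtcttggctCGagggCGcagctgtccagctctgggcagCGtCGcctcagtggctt
Foxc1 (chr13:31806396-31806645, plus strand): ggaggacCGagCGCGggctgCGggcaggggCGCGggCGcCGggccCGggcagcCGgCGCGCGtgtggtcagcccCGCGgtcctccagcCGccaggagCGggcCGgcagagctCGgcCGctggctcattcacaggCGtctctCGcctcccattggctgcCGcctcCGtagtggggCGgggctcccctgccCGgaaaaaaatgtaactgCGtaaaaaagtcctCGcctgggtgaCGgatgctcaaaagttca
Fendrr (chr8:121083111-121083360, minus strand): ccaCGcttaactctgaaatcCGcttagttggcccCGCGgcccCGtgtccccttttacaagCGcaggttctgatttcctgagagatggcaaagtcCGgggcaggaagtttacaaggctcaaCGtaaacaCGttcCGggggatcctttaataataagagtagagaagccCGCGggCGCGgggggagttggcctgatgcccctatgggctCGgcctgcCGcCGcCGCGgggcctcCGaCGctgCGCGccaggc
Mthfsd (chr8:121108338-121108587, minus strand): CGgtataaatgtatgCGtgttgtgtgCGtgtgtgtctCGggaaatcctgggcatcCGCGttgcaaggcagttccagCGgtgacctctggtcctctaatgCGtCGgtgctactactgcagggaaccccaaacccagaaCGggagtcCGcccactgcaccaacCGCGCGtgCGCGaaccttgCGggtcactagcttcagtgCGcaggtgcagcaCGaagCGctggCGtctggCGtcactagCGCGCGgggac

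The 3 promoters of Foxf2, Foxc1 and Fendrr were covered over all 250 bases by SUZ12 in clones 439 and 442 and in WT, by WT H3K27me3 of the original list and by WT H3K4me3. That of Mthfsd was covered over 250 bases by H3K4me3 and over 0 by SUZ12 and H3K27me3. The CpG counts were 21 at Foxf2, 29 at Foxc1, 23 at Fendrr and 25 at Mthfsd, so the uncovered promoter lay within the range of the covered ones. The median of 32841 promoters was 6, and 83.6% of promoters had fewer CpGs than Foxf2 and 93.2% fewer than Foxc1. Short motifs were searched on both strands. GGGCGG, a GC box, occurred 2 times at Foxf2, 1 time at Foxc1, 0 times at Fendrr and 1 time at Mthfsd, and in 32.7% of all promoters. CCAAT occurred 1 time at Foxc1 and at none of the other 3 (33.9% of all promoters). TATAAA occurred 1 time at Mthfsd and at none of the other 3 (12.4% of all promoters).

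The intervals between the genes differed from the genes themselves. Between the Foxf1 and Foxc2 windows (23.0 kb) the SUZ12 peaks of the 2 genes were 20.9 kb apart in clone 439 and 21.8 kb in clone 442, against 21.9 kb in WT. Most of Mthfsd lies in this gap, and a WT H3K4me3 peak of 108.5-fold (rank 1911 of 97213) covered its promoter, with H3K27ac of 10.4-fold beside it. Its H3K4me3 was thus higher than at any of the 6 forkhead genes. Between Foxq1 and Foxf2 (59.8 kb) H3K27me3 covered 87.6% and SUZ12 10.3% in clone 439 and 16.8% in clone 442, against 15.5% in WT, with no H3K27ac. The noncoding RNAs Gm11377 and 1700018A04Rik lie in this interval, both in the H3K27me3 region of Foxq1.

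Between Foxf2 and Foxc1 (170 kb) H3K27me3 covered 54.1% in the original and 37.4% in the rescue list, and 13 H3K27ac peaks covered 10.2 kb. Genome-wide H3K27me3 covered 13.3% in the original and 34.2% in the rescue list, so the rescue share of this interval lay near that of the genome. The strongest of these (chr13:31680538-31684913, 9.63-fold, 4.38 kb wide) lay 49.1 kb past Foxf2 and 122 kb before Foxc1. It overlapped the strongest H3K4me3 peak outside the gene windows of this cluster (chr13:31679521-31684083), of 52.0-fold, which is above the value at Foxf2 and Foxc1. The same site had 69.7-fold in the rescue list (chr13:31678420-31684117), again above both genes. No annotated gene of any type lay within 2500 bp of it, and the nearest regions were 3.45 kb away for H3K9me3 (chr13:31667860-31677090) and 18.0 kb for H3K27me3 in the original lists, 7.06 kb for H3K27me3 in the rescue list, and 47.5 kb for WT SUZ12.

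The genes beyond the clusters had weak or no SUZ12. On chromosome 8, Irf8, a myeloid transcription factor 325 kb away, had 11.4-fold in clone 439 and 10.5-fold in clone 442, against 10.5-fold in WT. Cox4i1, which encodes a respiratory chain subunit, 1700018B08Rik and Fbxo31 had no SUZ12 peak. On chromosome 13, Gmds, an enzyme of GDP-fucose synthesis 6.45 kb beyond the cluster, had 7.99-fold in clone 439 and 8.96-fold in clone 442, against 6.76-fold in WT. At Mylk4 the values were 10.4-fold in clone 439 and 13.8-fold in clone 442, against 9.10-fold in WT, and Hus1b and Exoc2 had no peak.

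Within the forkhead family of 44 genes, those of the 6 cluster genes with a SUZ12 peak lay among the genes with strong SUZ12. Foxl1 had no peak in WT and, in clone 442, only the one joined with Foxc2. Among the other 38 genes, 25 had SUZ12 in clone 439 and 27 in clone 442, against 23 in WT. The fold enrichment of the cluster genes had a median of 92.3 (66.3 to 121, 6 genes) in clone 439 and 62.7 (50.4 to 92.1, 6 genes) in clone 442, against 114.5 (94.8 to 122, 5 genes) in WT. For the other forkhead genes with a peak it was 56.8 (4.83 to 120) in clone 439 and 37.6 (4.15 to 98.1) in clone 442, against 56.6 (5.60 to 141) in WT. The ranges overlapped in each list. With the joined peak of Foxc2 and Foxl1 in clone 442 counted once, its median stayed at 62.7 (5 peaks). Foxc2 (122) came in WT after Foxd1 (141) and Foxe1 (131) alone, and the lowest were Foxj1 (5.60), Foxn4 (5.84) and Foxj2 (8.58).

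**Figure D5:**
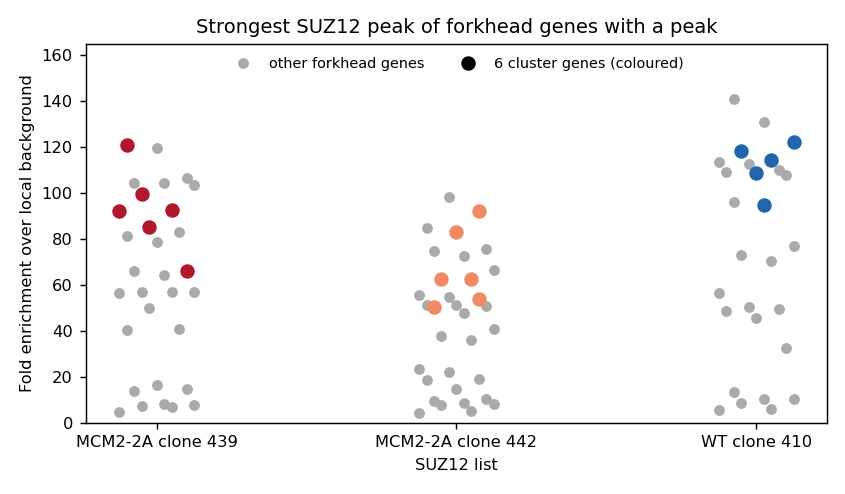
Strongest SUZ12 peak (fold enrichment over local background, vertical axis) of every forkhead gene with a peak, in MCM2-2A clones 439 and 442 and WT clone 410. Coloured points are the cluster genes (median 92.3, 62.7 and 114.5 from left to right) and grey points the other forkhead genes, and horizontal spread within a list has no meaning.

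Besides Foxl1, SUZ12 was in both mutant clones and not in WT at 2 other forkhead genes. These were Foxa3, with 7.95-fold in clone 439 and 8.12-fold in clone 442, and Foxk1, with 4.83-fold in clone 439 and 5.29-fold in clone 442. Foxl1 had 92.5-fold in clone 439. In clone 442 the peak over Foxl1 was the one joined with Foxc2, with its summit 10.1 kb before Foxl1, so no value of Foxl1 alone can be set beside Foxa3 and Foxk1 there. Foxp4 (7.74-fold) and Foxo4 (4.15-fold) had a peak in clone 442 alone.

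By the percent of the window covered in the 10 lists, the genes most like Foxf1 were Nkx3-2 (Euclidean distance 2.12 percentage points) and Hoxa10 (3.45). Those nearest to Foxc2 were Irx2 (3.73) and Lhx1 (6.40), both also without H3K27me3 in either list and with SUZ12 over the whole window in all 3 clones. Foxq1 was closest to Rprml (10.9) and Fzd1 (15.7), Foxf2 to Hmx3 (7.97) and Irx4 (8.92), and Foxc1 to Dlx1 (8.87) and Foxd1 (9.0). Foxl1 had no near match, with Kbtbd13 at 40.7 and Gpr62 at 47.5 percentage points, and both of those had WT SUZ12 over part of the window (27.8% and 21.9%). Among the 6 genes the paralogues Foxf1 and Foxf2 were 29.6 percentage points apart and Foxc1 and Foxc2 100.7. At Foxc1 the original H3K27me3 list covered 100% of the window and at Foxc2 0%. The rescue H3K27me3 list, of the same WT clone, covered 0% of both windows and did not show this difference. SUZ12 covered 100% of both in all 3 clones.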

How the data were processed

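Of the 136 samples in the series, 26 lay behind the 10 peak lists used. MACS2 2.1.0, Picard 2.20.7, BWA 0.7.15, cutadapt 2.5 and mm10 are listed in the submitters' processing notes, with no roles. Settings of the peak calling were not given in the sources used here. For SUZ12, H3K4me3 and H3K27ac the authors deposited the fold enrichment of each peak (a ratio to local background), a score, and the -log10 of p and q, of which the 6 columns of -log10 p were not used. For H3K27me3 and H3K9me3 the authors deposited regions with strength columns that carry no name, a score whose scale is unknown, used only to rank regions. Deposited SUZ12 peaks had passed an irreproducible discovery rate filter. Starts of narrow peaks counted from 0 and were converted to 1-based positions.

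A gene had a peak when at least 1 bp overlapped its window, and shares of all genes were not matched for window length. Strength was the highest fold enrichment in the window. Gene positions came from RefSeq (GRCm38.p6, the assembly of mm10), whose gene table carries no strand, so distances were taken from gene ends. Genes were named by rule: the 6 genes, genes between them and the first 2 protein-coding genes beyond each end, forkhead genes whose SUZ12 differed between lists and the 3 of highest and lowest WT fold enrichment, and the 2 nearest genes by covered percent of the window. The genes and lists were chosen with earlier results of these data known. Other clones and mutant mark samples were not analysed here. Depth was unknown. Alternatives changed windows, overlap, thresholds, list lengths and the strength measure. Interval functions were tested on simulated data. Python 3.11.15, numpy 2.4.6, pandas 2.3.3 and matplotlib 3.10.9 were used.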

Additional observations from a re-analysis of the deposited data

How the results depend on the processing

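Of 74 alternative values for the main results, 52 kept and 22 moved. A count or rank was taken as kept within 1.5 times its value, so WT SUZ12 at 6 genes in place of 5 and H3K27me3 at 3 in place of 4 count as kept, whereas a covered length or share counted as moved at any difference, however small. SUZ12 covered 64.5 kb of both clusters in clone 439 and 63.5 kb in clone 442, against 57.0 kb in WT. With the strongest 75% of each list these were 62.1 and 62.7 kb, against 56.0 kb, and with equal numbers of peaks clone 439 had 62.1 kb. In the gene windows alone they were 46.3 and 44.8 kb, against 40.8 kb, and with peaks within 1000 bp merged 65.2 and 63.6 kb, against 57.1 kb. The mutant clones stayed above WT in each of these totals. As reported, the excess lay on chromosome 8 (28.3 kb in clone 439 and 26.4 kb in clone 442, against 19.7 kb in WT). On chromosome 13 clone 439 had 36.2 kb and clone 442 37.1 kb, against 37.3 kb in WT. The genome-wide covered share was also higher in the mutant clones (0.791% and 0.832%, against 0.673% in WT). By -log10 q the median rank was 0.580% from the top in clone 442 (2.47% by fold enrichment), against 0.794% in WT (0.460%). That of clone 439 was 1.27% (1.18% by fold enrichment). By peak width it was 1.51% in clone 439 and 0.918% in clone 442, against 1.78% in WT. These medians are over 6 genes in the mutant clones and the 5 without Foxl1 in WT, so they compare unlike sets of genes. H3K9me3 was at 0 genes in the original list, at 1 in the rescue list (Foxc2) and at 1 with 5000 bp on both sides of each gene (Foxl1). In the rescue lists H3K27me3 covered 23.5% of the chromosome 8 cluster (23.3% in the original) and 52.1% of that on chromosome 13 (66.8%), H3K4me3 28.8% (26.0%) and 9.89% (9.18%), and H3K9me3 9.16% (1.58%) and 10.9% (6.99%). The genome-wide shares in the rescue lists were 34.2% for H3K27me3 (13.3% in the original), 4.50% for H3K4me3 (3.75%) and 17.1% for H3K9me3 (7.33%). H3K27me3 of the chromosome 8 cluster thus lay above the genome-wide share in the original list and below it in the rescue list. The causes were not tested. For single genes, 19 of 34 alternative ranks moved.

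No paired analysis was possible because the lists combine replicates and carry no replicate numbers. Leaving out a replicate could not be run for the same reason, and without read counts the precision of a fold enrichment is unknown.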
